A study of Mus musculus with 2 samples.

Results

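Tcf7, Lef1, Satb1, Bach2, Klf2, Id3, Ccr7 and S1pr1, 8 genes of naive and stem-like T cells, were followed among 32285 genes counted in single immune cells of mouse liver tumors. The 8 were chosen by name, as transcription factors and homing receptors of such cells, with no threshold on their values. The choice was made with earlier results of these data known. The cells were live CD45+ cells sorted from tumors of wild-type male C57BL/6J mice, 6 to 8 weeks old when the tumor model was set up. In these mice MYC was overexpressed and Trp53 was disrupted in the liver by plasmids given through hydrodynamic injection with sleeping beauty transposase. From 12 days after the plasmids all mice received lenvatinib, an inhibitor of several receptor tyrosine kinases, at 30 mg/kg for 25 days, after which they went on with lenvatinib alone or with lenvatinib plus palbociclib, an inhibitor of the cell cycle kinases CDK4 and CDK6, at 100 mg/kg. These arms are called lenvatinib and combo, and each was 1 droplet library of 3′ tags carrying unique molecular identifiers (UMIs, which count RNA molecules). Because each arm was 1 library of an unstated number of mice, the treatment and the library cannot be told apart and no test between the arms is possible. Every interval below is a 95% interval that covers counting error only.

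Naive and central memory T cells are kept quiescent and able to recirculate by a small set of transcription factors, and the same factors persist in the stem-like cells that sustain CD8 T cell responses to tumors. TCF1 and LEF1, the products of Tcf7 and Lef1, are related DNA-binding proteins that also act with beta-catenin. KLF2 drives S1PR1, by which lymphocytes leave tissue, CCR7 guides them into lymph nodes, and activation through the T cell receptor lowers most of these genes as cells become effectors. Several of the 8 are used outside T cells as well, in NK cells, B cells and myeloid cells.

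Cells with at most 6000 genes and at most 25% mitochondrial UMIs were kept, which left 14201 of 14509 barcodes of the lenvatinib library and 11613 of 11989 of the combo library, at medians of 5541 and 5754 UMIs. Both libraries held 49 barcodes in common. Cells were assigned by marker UMIs to CD8 T cells (Cd3e and Cd8b1, with 2897 and 2376 cells under lenvatinib and combo), CD4 T cells (351 and 461), Foxp3 T cells (343 and 49), NK cells (Ncr1, 2692 and 1145) and B cells (Cd79a, 594 and 730). T cells with Cd79a or Ncr1 were left out, as were CD8 T cells with Foxp3, CD4 T cells with Cd8b1 or Foxp3 and Foxp3 T cells with Cd8b1. NK cells had no Cd3e or Cd79a and B cells no Cd3e or Ncr1. Cells with S100a8 and S100a9 at 2% or more of UMIs were left out of all 5 classes, which caps both genes in the neutrophil marker sums below. Cd4 in CD8 T cells, other T cell genes in NK cells and macrophage genes excluded no cell. Of the markers not used for the assignment, Cd8a stood at 388 and 452 CPM (counts scaled to 1000000 UMIs of the summed cells of a class) in CD8 T cells and at most at 25.5 CPM in any other of the 5 classes, and Ms4a1 at 483 and 349 CPM in B cells. The regulatory T cell genes Il2ra, Ikzf2, Ctla4 and Tnfrsf18 summed to 4293.4 and 3276.5 CPM in Foxp3 T cells. They also summed to 1059.7 and 803.99 CPM in CD4 T cells, and their part in the CD4 T cell ratios was not tested. In B cells the 4 plasma cell markers, at 11476 and 19099 CPM, exceeded the 5 B cell markers, at 2633.8 and 1798.9 CPM. The 5 neutrophil markers, S100a8 and S100a9 among them, summed to 284 CPM in CD8 T cells under lenvatinib and to 1662 CPM under combo, or 0.152% and 0.575% of their level in neutrophils. They stood at 311 to 495 CPM under lenvatinib and 1664 to 2730 CPM under combo in the other 4 classes. The 4 macrophage markers summed to 126 and 412 CPM in CD8 T cells, 183 and 314 CPM in CD4 T cells and 105 and 700.1 CPM in NK cells, and the part of either list in the ratios was not tested. The 9 mitosis genes that could be compared in CD8 T cells were all at least 1.5-fold lower under combo, beside 9.68% of all genes. Mki67 stood at 201 against 54.3 CPM.

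All 8 are protein coding genes on mm10 (GENCODE vM21 annotation). Tcf7 (ENSMUSG00000000782) lies on the minus strand of chromosome 11 from 52252371 to 52283014, and Lef1 (ENSMUSG00000027985) on the plus strand of chromosome 3 from 131110471 to 131224356. Satb1 (ENSMUSG00000023927) lies on the minus strand of chromosome 17 from 51736187 to 51833290, and Bach2 (ENSMUSG00000040270) on the plus strand of chromosome 4 from 32238804 to 32586108. Klf2 (ENSMUSG00000055148) lies on the plus strand of chromosome 8 from 72319033 to 72321656, and Id3 (ENSMUSG00000007872) on the plus strand of chromosome 4 from 136143497 to 136145755. The receptor genes Ccr7 (ENSMUSG00000037944) and S1pr1 (ENSMUSG00000045092) lie on the minus strands of chromosome 11 from 99144196 to 99155077 and of chromosome 3 from 115710433 to 115715072.

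The windows around the start of 3 of the 8 genes are shown because the ratios between the libraries turn on them: Satb1 and Tcf7 had the lowest ratios of combo to lenvatinib in CD8 T cells and Klf2 the highest. RefSeq windows of 300 bases around annotated starts (GRCm38.p6) were at hand for 6 of the 8 genes, with 14 windows in all, and were not used here for Ccr7 and S1pr1. Printed 5′ to 3′ on the strand of the gene, they lie at chr11:52282965-52283264 on the minus strand for Tcf7, chr17:51833241-51833540 on the minus strand for Satb1 and chr8:72318812-72319111 on the plus strand for Klf2. Capitals mark matches on either strand to CCNCNCCC, a core bound by Krüppel-like factors, where N is any base and overlapping matches run together.

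Tcf7: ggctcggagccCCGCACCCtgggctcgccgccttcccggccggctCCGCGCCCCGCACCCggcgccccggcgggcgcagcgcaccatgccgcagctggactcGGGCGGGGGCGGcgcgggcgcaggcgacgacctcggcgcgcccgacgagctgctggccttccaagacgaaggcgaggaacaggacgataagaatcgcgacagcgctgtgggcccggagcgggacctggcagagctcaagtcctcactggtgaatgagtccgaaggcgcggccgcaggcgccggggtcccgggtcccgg

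Satb1: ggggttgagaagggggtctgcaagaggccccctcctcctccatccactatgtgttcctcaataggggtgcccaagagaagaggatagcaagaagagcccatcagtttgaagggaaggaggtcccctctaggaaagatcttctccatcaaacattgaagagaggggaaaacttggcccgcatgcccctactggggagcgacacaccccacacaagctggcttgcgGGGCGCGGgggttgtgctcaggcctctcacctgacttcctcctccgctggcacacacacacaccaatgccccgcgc

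Klf2: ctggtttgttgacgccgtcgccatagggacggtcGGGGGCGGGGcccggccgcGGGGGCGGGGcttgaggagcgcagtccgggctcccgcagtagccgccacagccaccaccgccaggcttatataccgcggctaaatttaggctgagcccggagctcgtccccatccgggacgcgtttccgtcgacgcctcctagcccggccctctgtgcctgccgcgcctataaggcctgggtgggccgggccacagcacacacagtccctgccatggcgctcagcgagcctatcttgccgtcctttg

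This core was found in 12 of the 14 windows and in 49.5% of all 32851 windows of the same length. The letters CTTTGAT or CTTTGTT, a core bound by TCF1 and LEF1, were found in 2 of the 14 windows, both of Satb1, and in 9.33% of all windows. These windows of Satb1 overlap and hold the same match, and a pair of windows of Lef1 overlaps as well, so the windows are not separate sequences. Neither match shows binding in these cells.

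In CD8 T cells the 8 genes did not move as a block. Klf2 was the only member above 1 in the ratio of combo to lenvatinib, and the other 7 stood between 0.433 and 0.840. The median ratio of all 7389 genes compared in CD8 T cells was itself 0.903, so a ratio near 0.9 sat at the middle of all genes. Of the 8, 2 were at least 1.5-fold lower under combo, Tcf7 and Satb1, beside 9.68% of all genes, and 0 were at least 1.5-fold higher, beside 2.8% of all genes. The median of the members was 0.802. Relative to the median of all genes the genes past 1.5-fold were others in part: Satb1 at 0.480 and Klf2 at 1.55, with Tcf7 at 0.712.

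Satb1, a chromatin organizer of T cell precursors and naive cells, stood at 516 CPM under lenvatinib and 224 CPM under combo. The ratio was 0.433 (0.418 to 0.450), and 0.974% of all genes had a ratio as low or lower. A Satb1 UMI was found in 44.4% and 22.2% of CD8 T cells once each cell was thinned to 2000 UMIs, and in 61.7% and 39.3% before thinning. Satb1 was thus lower under combo both in level and in the share of cells. Tcf7, the gene of TCF1, the factor that defines stem-like CD8 T cells, stood at 288 CPM (281 to 295) and 185 CPM (179 to 192). Its ratio was 0.643 (0.616 to 0.671), and a Tcf7 UMI was found in 36.7% and 23.9% of thinned cells. Lef1, which shares many target sites with Tcf7, stood at 139 and 113 CPM, a ratio of 0.814 (0.769 to 0.862). Lef1 was nearer than Tcf7 to the median of all genes, at 0.902 of it, against 0.712 for Tcf7.

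Klf2, the factor that holds naive cells quiescent and drives S1pr1, stood at 664 CPM (654 to 675) under lenvatinib and 928 CPM (914 to 943) under combo. The ratio was 1.40 (1.37 to 1.43), below the 1.5-fold line as it stood and 1.55 relative to the median of all genes. Only 4.20% of all genes had a ratio as high or higher. The share of thinned cells with a Klf2 UMI was 57.4% and 58.8%, with intervals that overlapped (55.5% to 59.2% and 56.8% to 60.8%), so over all CD8 T cells no difference in the share was detectable. Within groups of CD8 T cells the share was higher under combo in Pdcd1- Gzmk- cells, at 65.5% (63.3% to 67.7%) and 72.5% (69.6% to 75.2%), and intervals overlapped in the other 3 groups set by Pdcd1 and Gzmk UMIs.

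Ccr7, the chemokine receptor for entry into lymph nodes, stood at 149 and 124 CPM, with a ratio of 0.832 (0.787 to 0.879). S1pr1, the sphingosine-1-phosphate receptor for exit from tissue, stood at 97.3 and 76.7 CPM, a ratio of 0.789 (0.736 to 0.845). Both receptors of recirculation were thus slightly lower under combo while Klf2 was higher. Bach2, a repressor that restrains effector differentiation, stood at 34.0 and 28.6 CPM, a ratio of 0.840 (0.748 to 0.943). Id3, an inhibitor of E proteins linked with memory precursors, stood at 47.4 and 37.1 CPM, a ratio of 0.782 (0.708 to 0.864). These 4 ratios lay between 0.866 and 0.930 of the median of all genes.

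**Figure D1:**
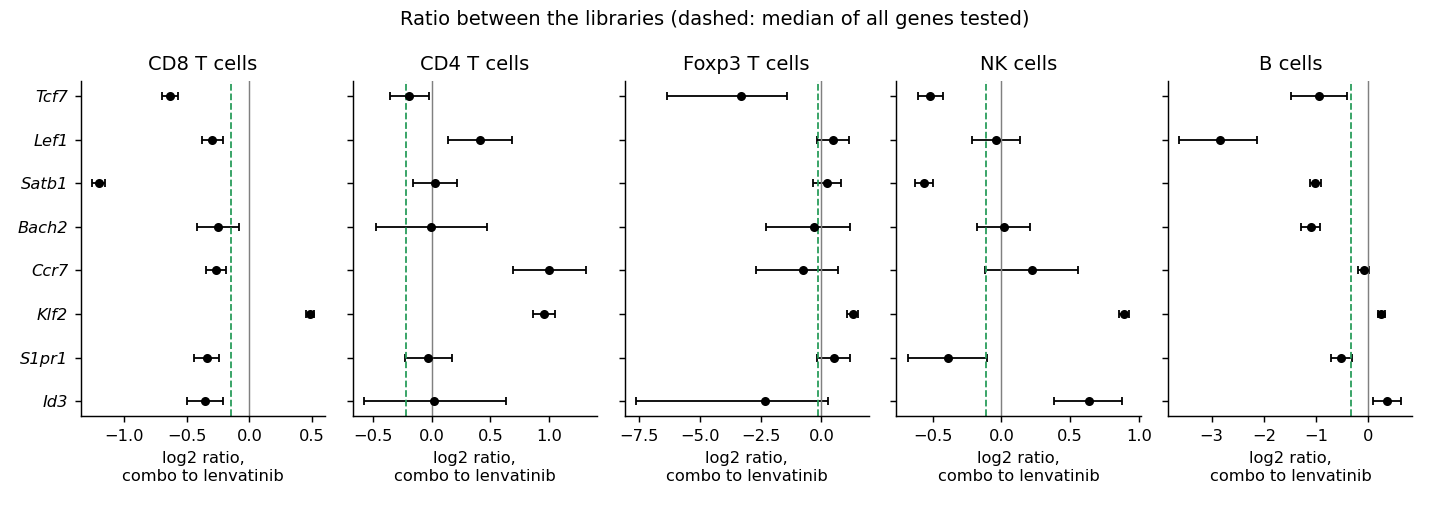
Ratio of combo to lenvatinib on a log2 axis for each of the 8 genes in 5 cell classes, with 95% intervals for counting error; the solid line marks equal levels and the dashed line the median ratio of all genes compared in that class, and the horizontal scale differs between panels. Klf2 lies to the right of both lines in every panel, and Satb1 is the leftmost gene in CD8 T cells at a ratio of 0.433.

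The CD8 T cells of the libraries differed in make-up. Cells with a Pdcd1 UMI, the gene of the inhibitory receptor PD-1, made up 13.0% (11.8% to 14.3%) of CD8 T cells under lenvatinib and 22.3% (20.6% to 24.0%) under combo. Cells with a UMI of Gzmk, a granzyme of activated and effector memory cells, made up 31.3% and 49.7%. At an equal depth of 2000 UMIs the shares were 6.00% and 10.8% for Pdcd1, and 17.6% and 29.9% for Gzmk. Cells with neither, called Pdcd1- Gzmk- here, made up 64.6% and 43.6%.

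All 8 genes were at least 1.5-fold lower in Pdcd1+ than in Pdcd1- cells in both libraries, beside 1.29% of the genes compared. All 8 were also at least 1.5-fold lower in Gzmk+ than in Gzmk- cells in both, beside 1.65%. The widest gap was that of Ccr7, at 35.7 CPM in Pdcd1+ and 166 CPM in Pdcd1- cells under lenvatinib, and at 14.6 and 156 CPM under combo. The ratio of Pdcd1+ to Pdcd1- cells was 0.215 (0.175 to 0.261) and 0.0934 (0.0699 to 0.122). Id3 had the narrowest gap, with ratios of 0.665 (0.534 to 0.820) and 0.610 (0.483 to 0.762), the first of which lay at the line of 1.5-fold. Klf2, in spite of its higher level under combo, was split like the rest, at 315 and 714 CPM under lenvatinib and at 530 and 1043 CPM under combo. These gates rest on UMIs of single genes, so a Pdcd1- cell can be a cell whose Pdcd1 RNA was not caught.

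**Figure D2:**
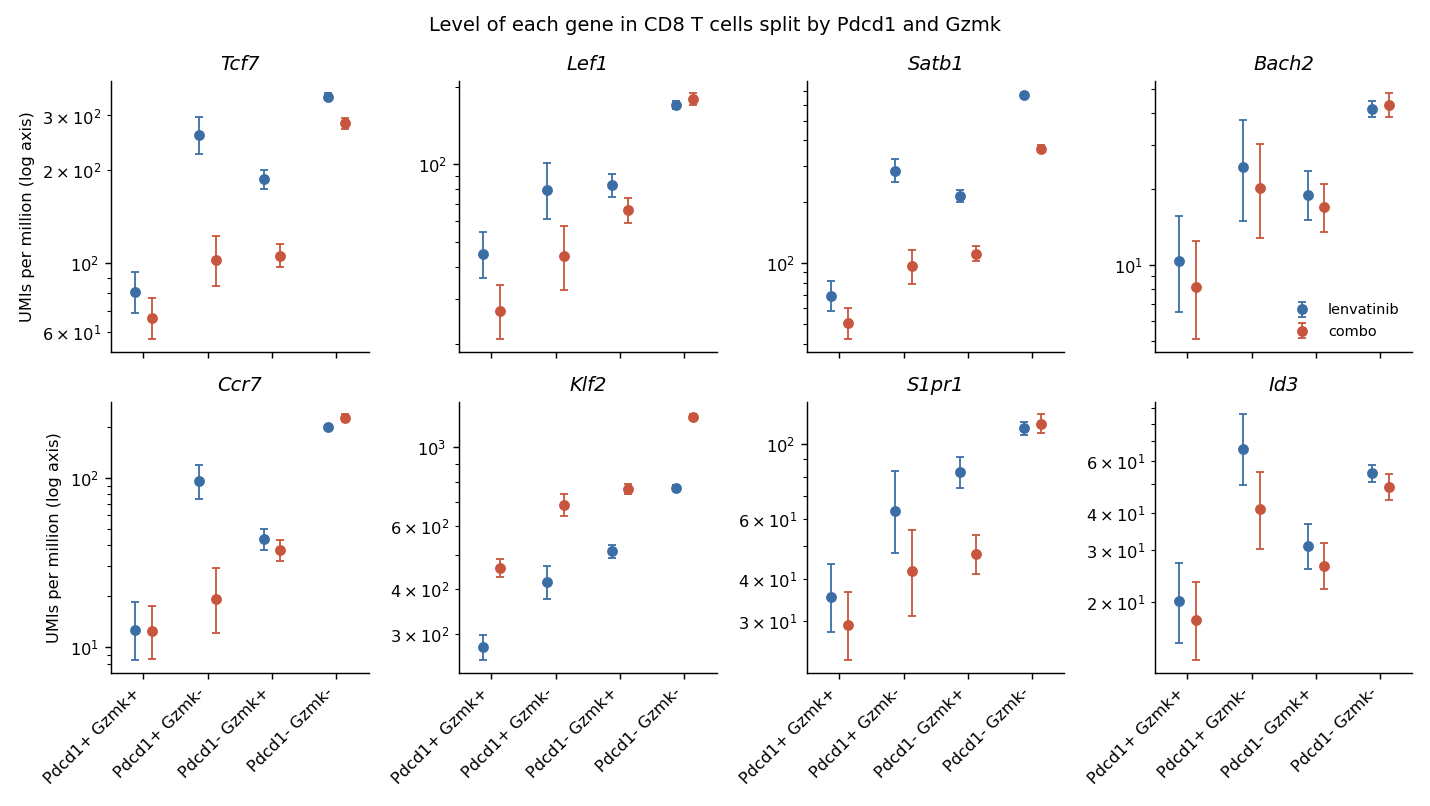
Level of each gene in CPM (log axis) in CD8 T cells split by UMIs of Pdcd1 and Gzmk, for the lenvatinib and combo libraries, with 95% Poisson intervals. In each panel the level in Pdcd1- Gzmk- cells is the highest or near the highest of the 4, and the red combo points of Klf2 lie above the blue points throughout.

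Within the Pdcd1- Gzmk- cells, the nearest of these gates to naive cells, Lef1, Bach2, S1pr1 and Id3 had similar levels in both libraries. Lef1 stood at 170 and 179 CPM under lenvatinib and combo, a ratio of 1.06 (0.990 to 1.13). Bach2 stood at 41.6 and 43.3 CPM, a ratio of 1.04 (0.911 to 1.19), and S1pr1 at 111 and 115 CPM, a ratio of 1.03 (0.952 to 1.12). Id3 stood at 54.5 and 49.1 CPM, a ratio of 0.901 (0.798 to 1.02). For each of these genes the interval spanned 1, whereas over all CD8 T cells it had lain below 1. Ccr7 was higher under combo here, at 199 and 227 CPM, a ratio of 1.14 (1.08 to 1.21). Tcf7 stood at 344 and 283 CPM, a ratio of 0.821 (0.782 to 0.863), less far from 1 than over all CD8 T cells. Satb1 kept most of its gap, at 669 and 365 CPM, a ratio of 0.546 (0.524 to 0.569). Klf2 stood at 769 and 1213 CPM, a ratio of 1.58 (1.54 to 1.62). Satb1 was below 1 and Klf2 above 1 in all 4 groups of CD8 T cells set by Pdcd1 and Gzmk, with intervals that left out 1.

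With these 4 groups weighted to their shares of UMIs in the lenvatinib library, an alternative added after the values were seen, the ratios were 1.004 for Lef1, 1.01 for Bach2 and 1.11 for Ccr7. They were 0.944 for S1pr1, 0.881 for Id3 and 0.777 for Tcf7. Satb1 at 0.542 and Klf2 at 1.57 stayed farthest from 1. So weighted, 5 of the 8 genes lay between 0.881 and 1.11. For Ccr7 the ratios of the 4 groups ran from 0.203 to 1.14. The groups rest on UMIs of single genes read at unequal depth, at medians of 7024 and 5748 UMIs in CD8 T cells. The part of make-up in these ratios was not tested.

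The smaller group of Pdcd1+ Gzmk- cells, 120 and 160 cells, had the lowest ratios of these 4 groups for Tcf7, Lef1, Satb1, Ccr7 and Id3, but not for S1pr1 or Bach2. Ccr7 stood at 95.3 CPM under lenvatinib and 19.3 CPM under combo, a ratio of 0.203 (0.120 to 0.329). Tcf7 stood at 259 and 103 CPM, a ratio of 0.396 (0.313 to 0.499), and Satb1 at 285 and 96.5 CPM, a ratio of 0.339 (0.268 to 0.427). These levels rest on few cells: a Ccr7 UMI, from 78 and 22 UMIs in all, was found in 4.31% (1.41% to 9.77%) and 3.80% (1.41% to 8.08%) of thinned cells. The shares overlapped for Tcf7 as well, at 29.3% and 19.6%, and for Satb1, at 17.2% and 13.9%, so no gap in the share of cells was detectable there. Macrophage markers summed to 26.9 and 828 CPM in this group, and their part in these ratios was not tested. In Pdcd1+ Gzmk+ cells, 257 and 369 cells, Tcf7 stood at 80.9 and 66.5 CPM with an interval of the ratio that spanned 1 (0.661 to 1.02). The interval of Ccr7 also spanned 1 there, at 12.7 and 12.4 CPM.

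Tcf7 marks the stem-like fraction of Pdcd1+ CD8 T cells, the cells that respond to checkpoint blockade. At 2000 UMIs per cell a Tcf7 UMI was found in 59 of 373 Pdcd1+ cells under lenvatinib, 15.8% (12.3% to 19.9%), and in 63 of 525 under combo, 12% (9.35% to 15.1%), with exact binomial intervals. The intervals overlapped, so no difference was detectable at this depth, and with cells thinned before gating the shares stood the other way, at 11.9% and 12.6%. Before thinning the shares were 29.97% and 24.8%, and 4 shallower cells of each library were left out. In B cells, which should lack Tcf7, the thinned share was 3.76% and 2.17%, at median depths of 3294.5 and 3645 UMIs against 5860 and 5315 UMIs in Pdcd1+ cells before thinning. The shares in Pdcd1+ cells were thus above this background in both libraries. In Pdcd1- cells the shares were 39.9% (38.0% to 41.9%) and 27.4% (25.3% to 29.5%).

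The other genes of the set went with Tcf7 in these Pdcd1+ cells. Cells with a Tcf7 UMI numbered 113 and 131 and cells without 264 and 398, and all 7 other genes were at least 1.5-fold higher in the cells with Tcf7 in both libraries, beside 5.93% and 4.58% of all genes. Satb1 stood at 282 CPM with and 30.7 CPM without Tcf7 under lenvatinib, a ratio of 9.19 (6.89 to 12.5). Under combo it stood at 123 and 35.8 CPM, a ratio of 3.44 (2.63 to 4.52). Ccr7 stood at 86.8 and 2.79 CPM under lenvatinib, the latter from 5 UMIs, and at 30.2 and 6.84 CPM under combo. Id3 had a ratio of 10.0 (5.57 to 19.7) under lenvatinib and 1.70 (1.10 to 2.62) under combo, and Klf2 of 1.90 (1.67 to 2.17) and 1.81 (1.66 to 1.98). The ratios of Satb1, Ccr7 and Id3 were lower under combo with intervals that did not overlap between the libraries, while those of Lef1, Bach2, S1pr1 and Klf2 overlapped. Cells with a Tcf7 UMI were also deeper, at medians of 7781 against 5399 UMIs and 7579 against 5055.5 UMIs, and the part of depth in these ratios was not tested.

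Of the 14 other naive and quiescence genes, 8 of the 13 compared were at least 1.5-fold higher in the cells with Tcf7 under lenvatinib and 5 of the 12 compared under combo, and 0 were lower in either. Il7r, the receptor of the survival cytokine IL-7, stood at 141 against 14.5 CPM under lenvatinib and 362 against 67.2 CPM under combo. The highest ratios of this list under lenvatinib were those of Dapl1 at 31.1 and Nsg2 at 18.7, with 4 and 6 UMIs in cells without Tcf7. Under combo Dapl1 had a ratio of 4.69. Of 10 genes of stem-like exhausted cells, 5 of 7 and 4 of 7 were higher, among them Slamf6, at ratios of 2.26 (1.62 to 3.17) and 2.48 (1.73 to 3.57), and Xcl1, at 2.60 (2.25 to 3.01) and 2.84 (2.50 to 3.23). Others of that list were not, with Cd28 at 0.894 and 0.932 and Icos at 0.896 and 1.14. How many of the cells with Tcf7 were naive rather than stem-like was not tested. Of 16 effector and terminal exhaustion genes, 9 of 14 and 8 of 15 were lower and 0 were higher. Havcr2, the gene of the inhibitory receptor TIM-3, stood at 21.7 against 71.4 CPM and at 8.97 against 47.1 CPM. Among all genes, 13.7% and 9.56% were lower in the cells with Tcf7.

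**Figure D3:**
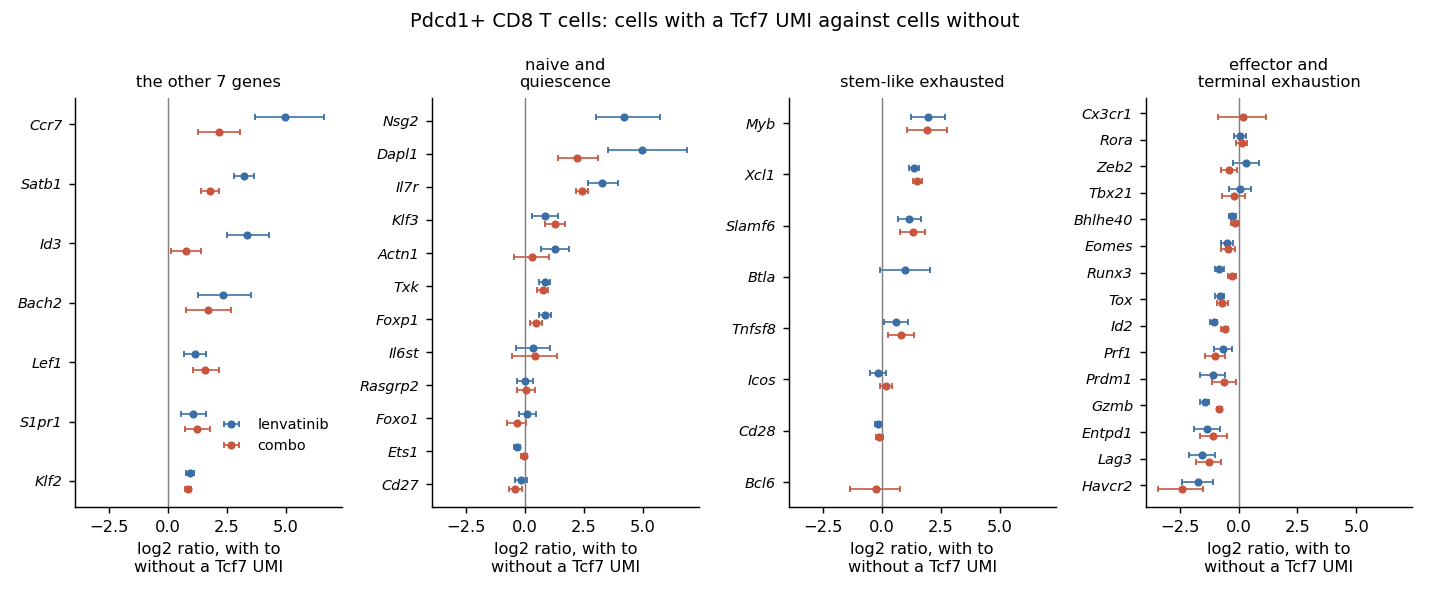
Ratio on a log2 axis of the level in Pdcd1+ CD8 T cells with a Tcf7 UMI to that in cells without, for the other 7 genes and for genes of 3 lists in the lenvatinib and combo libraries, with 95% intervals for counting error. The 7 genes all lie right of the line of equal levels, and Havcr2 lies farthest left, at ratios of 0.304 and 0.190.

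The 8 genes were found together in single CD8 T cells more often than their separate shares would give. At 2000 UMIs per cell all 28 pairs had more cells with both genes than the product of their shares, in both libraries. The median ratio of observed to expected cells was 1.33 under lenvatinib, with a range of 1.13 to 1.72, and 1.63 under combo, with a range of 1.16 to 2.47. The pair of Lef1 and Ccr7 had the highest ratio under lenvatinib and the pair of Ccr7 and Id3 under combo. In CD4 T cells 27 of 28 pairs were above 1 under lenvatinib and 26 under combo, at medians of 1.382 and 1.504. In B cells 17 and 21 of 28 pairs were above 1, at medians of 1.089 and 1.099. Whether pairs of other genes had such ratios was not tested. A UMI of at least 3 of the 8 genes was found in 36.6% (34.8% to 38.4%) of CD8 T cells under lenvatinib and 23.1% (21.4% to 24.9%) under combo. In Pdcd1- Gzmk- cells these shares were 49.8% and 42.0%, and in Pdcd1+ Gzmk+ cells 3.11% and 3.27%. B cells had higher shares than CD8 T cells as a whole, at 60.9% and 52.8%, and CD4 T cells stood at 24.0% and 27.5%.

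**Figure D4:**
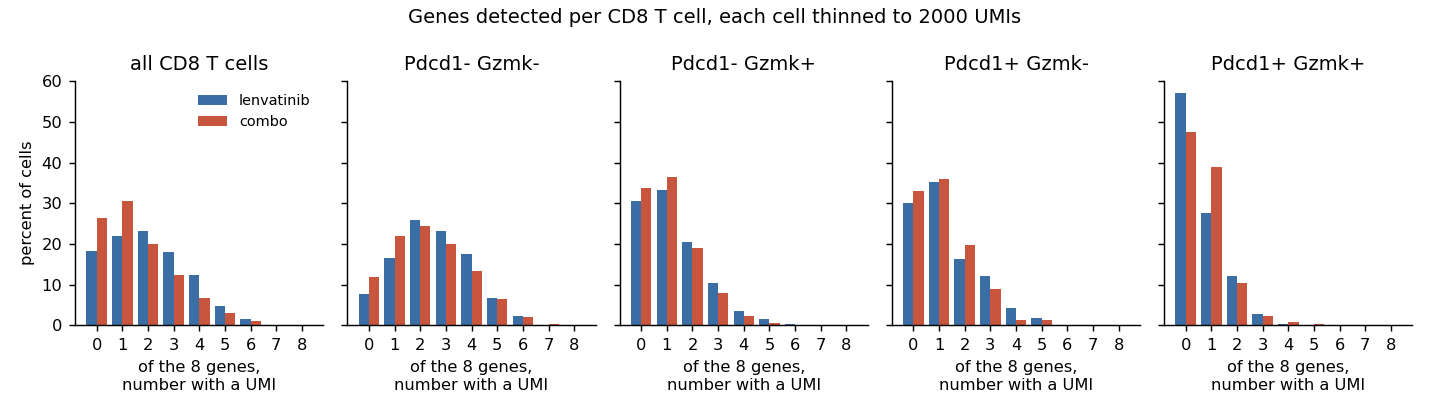
Percent of CD8 T cells, overall and in 4 groups set by Pdcd1 and Gzmk, against the number of the 8 genes with at least 1 UMI after each cell was thinned to 2000 UMIs. Pdcd1- Gzmk- cells peak at 2 genes and Pdcd1+ Gzmk+ cells at 0, and over all CD8 T cells 18.3% under lenvatinib and 26.3% under combo had none.

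CD4 T cells differed from CD8 T cells in Ccr7 and Lef1, whose ratios lay above 1. Of the 8 genes, 2 were at least 1.5-fold higher under combo, Ccr7 and Klf2, beside 3.9% of all genes, and 0 were lower, beside 21.5%. Ccr7 stood at 60.3 CPM (50.0 to 72.1) under lenvatinib and 121 CPM (108 to 134) under combo, a ratio of 2.00 (1.62 to 2.49). A Ccr7 UMI was found in 6.53% (4.14% to 9.72%) and 11.6% (8.85% to 15.0%) of cells thinned to 2000 UMIs. These intervals overlapped, so no difference in the share was detectable. Klf2 stood at 592 and 1149 CPM, a ratio of 1.94 (1.82 to 2.08), and a Klf2 UMI was found in 54.0% and 72.5% of thinned cells. A ratio as high or higher was found in 0.981% of all genes for Ccr7 and 1.12% for Klf2. The median was 1.02 over the members and 0.857 over all genes, and relative to the latter Lef1 also passed 1.5-fold, at 1.55. Lef1 stood at 87.9 and 117 CPM, a ratio of 1.33 (1.10 to 1.61), and Tcf7 at 277 and 242 CPM, a ratio of 0.876 (0.782 to 0.982). Satb1, so much lower in CD8 T cells, stood at 207 and 211 CPM here, a ratio of 1.02 (0.896 to 1.16), but of 0.570 where cells were thinned to 2000 UMIs before gating. S1pr1 at 177 and 173 CPM, Bach2 at 33.6 and 33.5 CPM and Id3 at 20.6 and 20.9 CPM had intervals of the ratio that spanned 1. The 10 mitosis genes were all at least 1.5-fold lower in CD4 T cells under combo, and their part in these ratios was not tested.

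Foxp3 T cells, the regulatory T cells, numbered 343 under lenvatinib and 49 under combo, so that several combo values rest on a few UMIs. Klf2 stood at 361 and 877 CPM, from 679 and 255 UMIs, a ratio of 2.43 (2.09 to 2.81). Tcf7 stood at 68.1 CPM from 128 UMIs and at 6.88 CPM from 2 UMIs, a ratio of 0.101 (0.0121 to 0.372), which stood at 0.560 without the exclusion of cells with UMIs of other lineages. At 2000 UMIs, 0 of 43 Foxp3 cells under combo had a Tcf7 UMI, which allows a share of cells with a UMI of up to 6.98% by the limit of 3 counts (the exact upper bound is 8.22%), against 9.20% (6.30% to 12.9%) under lenvatinib. Of the 8 genes, 1 was at least 1.5-fold higher, beside 12.6% of all genes, and 3 were lower, Tcf7, Ccr7 and Id3, beside 25.3%. The median was 0.997 over the members and 0.911 over all genes, relative to which Lef1 at 1.54 and S1pr1 at 1.56 passed 1.5-fold as well. Ccr7 and Id3 were each counted from 4 UMIs or fewer under combo, with intervals of the ratio that spanned 1. Lef1, at 61.2 and 86.0 CPM, Satb1, at 95.7 and 113 CPM, and S1pr1, at 58.0 and 82.5 CPM, had intervals that spanned 1 as well, and so did Bach2, at 17.0 and 13.8 CPM. Without that exclusion the ratio of Ccr7 stood above 1, at 1.43. Bach2 ran from 0.581 to 2.66 and Satb1 from 0.719 to 2.54 over the alternatives. The neutrophil markers summed to 495 and 2730 CPM in Foxp3 T cells and the 4 macrophage markers to 69.1 and 1296 CPM, of which Lyz2, a gene of neutrophils too, made up 56.9 and 1276 CPM, while C1qb stood at 3.72 and 3.44 CPM and C1qc at 5.32 and 0 CPM. The part of these markers in the ratios was not tested.

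NK cells carried much Satb1 and Tcf7 and little Ccr7. Of the 8 genes, 2 were at least 1.5-fold higher under combo, Klf2 and Id3, beside 3.32% of all genes, and 0 were lower, beside 9.67%. The median was 0.992 over the members and 0.925 over all genes. Klf2 stood at 589 CPM (578 to 599) and 1094 CPM (1073 to 1115), a ratio of 1.86 (1.81 to 1.91). Id3 stood at 15.6 and 24.2 CPM, a ratio of 1.55 (1.31 to 1.84), but was found in 2.21% and 2.12% of thinned cells. Satb1 stood at 410 and 278 CPM, a ratio of 0.677 (0.648 to 0.707), and Tcf7, which NK cells need for their development, at 188 and 131 CPM, a ratio of 0.699 (0.655 to 0.744). Satb1 and Tcf7 were thus lower under combo in NK cells as in CD8 T cells, by less than 1.5-fold. Lef1 at 39.9 and 38.9 CPM, Bach2 at 32.7 and 33.0 CPM and Ccr7 at 10.1 and 11.8 CPM had intervals that spanned 1, while S1pr1 stood at 18.2 and 13.9 CPM, a ratio of 0.764 (0.623 to 0.932).

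B cells had the highest levels of Bach2 and Ccr7 among the 5 classes in both libraries. They also stood first for Klf2 and Id3, with intervals that overlapped the next class under combo for Klf2 and under lenvatinib for Id3. Of the 8 genes, 4 were at least 1.5-fold lower under combo, Satb1, Bach2, Lef1 and Tcf7, beside 31.7% of all genes, and 0 were higher, beside 4.21%. Tcf7, which B cells should lack, stood at a background of 21.4 and 11.1 CPM, so its ratio is not read as a change in B cells. The median was 0.609 over the members and 0.794 over all genes in B cells. Relative to the latter, Id3 also passed 1.5-fold, at 1.62. Bach2, which in B cells holds back plasma cell differentiation, stood at 186 CPM (171 to 202) and 86.7 CPM (78.7 to 95.3), a ratio of 0.465 (0.409 to 0.528). Satb1 stood at 519 and 257 CPM, a ratio of 0.495 (0.459 to 0.533). Ccr7, by which B cells too reach lymph nodes, stood at 397 and 374 CPM with an interval of the ratio that spanned 1 (0.874 to 1.01), and the ratio was above 1 under 5 of 11 alternatives. Klf2 stood at 994 and 1181 CPM, a ratio of 1.19 (1.14 to 1.24), S1pr1 at 122 and 85.1 CPM, a ratio of 0.698 (0.605 to 0.804), and Id3 at 56.5 and 72.5 CPM, a ratio of 1.28 (1.07 to 1.55).

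Lef1 in B cells came largely from a few cells. It stood at 28.9 and 4.04 CPM, a ratio of 0.140 (0.0814 to 0.229), from 88 and 20 UMIs. Of the 88 UMIs under lenvatinib, 57 lay in 20 cells with a UMI of Igll1 or Vpreb1, the surrogate light chain genes of B cell precursors, where Lef1 stood at 221 CPM (168 to 287). Under combo 1 B cell had such a UMI. In the remaining 574 and 729 B cells Lef1 stood at 11.1 and 4.05 CPM, a ratio of 0.364 (0.197 to 0.660). Satb1 had a ratio of 0.464 (0.430 to 0.500) there and Bach2 one of 0.456 (0.401 to 0.519). Lef1 was under the minimum level for the count there, and the genes past 1.5-fold were Tcf7, Satb1, Bach2 and S1pr1, the last at a ratio of 0.657. The share of all genes past 1.5-fold is not given for these cells. Over all B cells it was 31.7% on the lower side, at a median ratio of 0.794, so S1pr1 was not far from other genes. In the B cells of this kind that also had a UMI of Ighd, a gene of mature naive B cells, Satb1 stood at 889 and 509 CPM, and Bach2 had a ratio of 0.548 (0.472 to 0.635). Red cell markers summed to 1404 CPM in B cells under lenvatinib and 4.45 CPM under combo, plasma cell markers to 11476 and 19099 CPM, and macrophage markers to 402 and 1841 CPM, of which Lyz2 made up 323 and 1812 CPM. Their part in the B cell ratios was not tested.

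**Figure D5:**
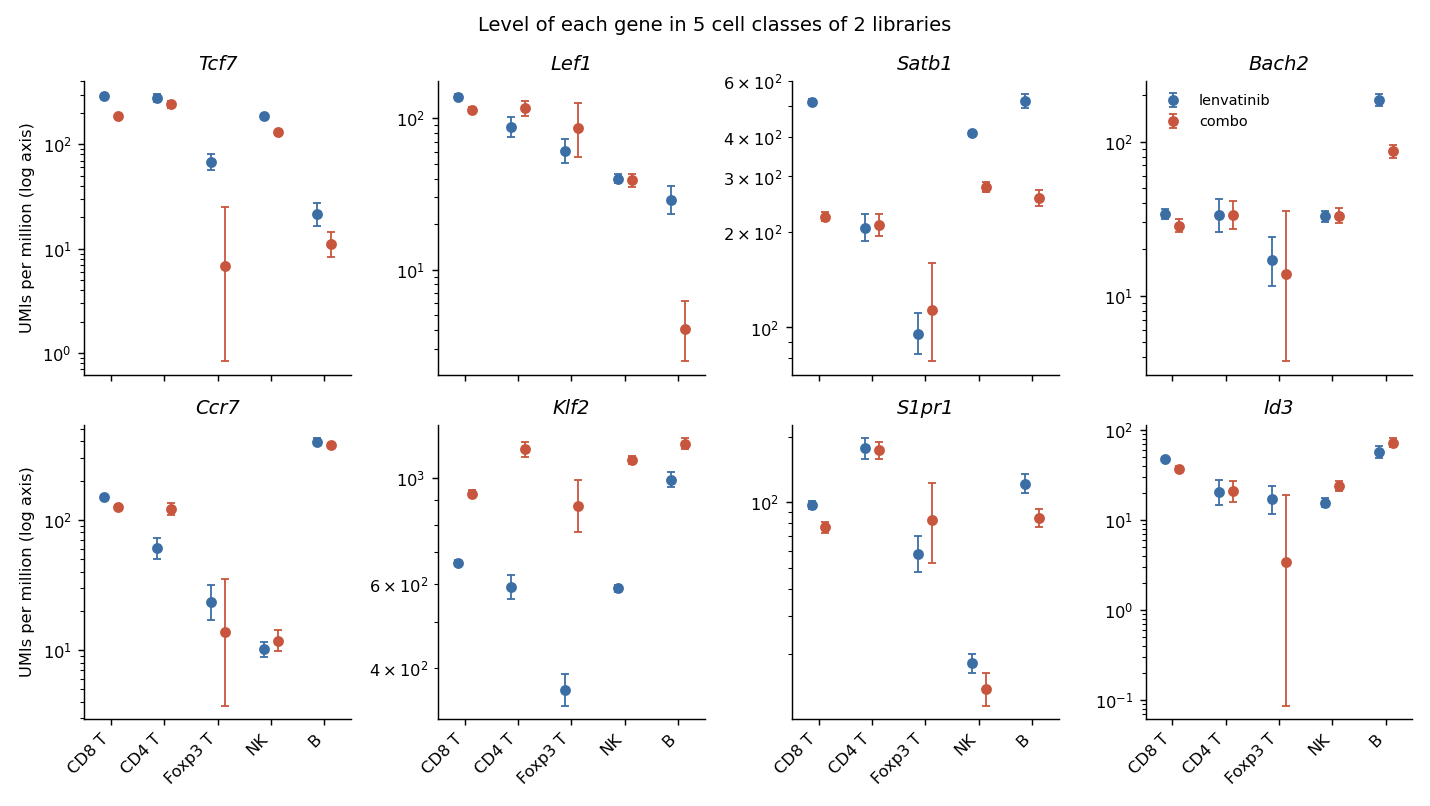
Level of each gene in CPM (log axis, a separate scale in each panel) in 5 cell classes of the lenvatinib and combo libraries, with 95% Poisson intervals. Klf2 is higher under combo in every class, and the widest bars are those of the 49 Foxp3 T cells of the combo library.

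Across the 5 classes each gene had an order of its own. Tcf7 was highest in CD8 and CD4 T cells under lenvatinib, at 288 and 277 CPM with overlapping intervals, followed by NK cells, Foxp3 T cells and B cells. Under combo CD4 T cells came first, at 242 CPM, and CD8 T cells second, at 185 CPM. S1pr1 was highest in CD4 T cells in both libraries and lowest in NK cells. Klf2 was lowest in Foxp3 T cells in both libraries, with an overlap with CD8 T cells under combo. Klf2 was the only gene of the 8 with a ratio above 1 and an interval above 1 in all 5 classes, and Tcf7 the only gene with both below 1 in all 5. In CD4 T cells, however, the ratio of Tcf7 stood at 1.03 without the exclusion of other lineages and at 1.02 relative to the median of all genes. In B cells, which should lack Tcf7, its ratio compares a background of 21.4 and 11.1 CPM, from 65 and 55 UMIs. Tcf7 in neutrophils stood at 14.9 and 4.48 CPM. Klf2 was also strongly detected in neutrophils, at 1200 CPM under lenvatinib and 898 CPM under combo, a ratio of 0.748 that lay at the median of all genes there, 0.751.

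Genes of the same pathways were compared in CD8 T cells from lists that also held genes at low levels. Of all genes compared in CD8 T cells, 2.8% were at least 1.5-fold higher under combo and 9.68% lower. Of 14 other naive and quiescence genes, 2 were at least 1.5-fold higher under combo and 5 lower, with a median ratio of 0.821 beside 0.903 for all genes. Nsg2 stood at 76.4 and 41.0 CPM, whereas Igfbp4 stood at 11.6 and 21.7 CPM and Il7r at 181 and 281 CPM, a ratio of 1.56 (1.49 to 1.62). Of 8 stem-like exhausted cell genes compared, 0 were higher and 2 were lower, Btla at 16.3 and 8.01 CPM and Myb, a factor of stem-like cells, at 48.6 and 30.2 CPM. The highest 2 of that list were Icos at a ratio of 1.34 and Slamf6 at 1.15. Of 15 effector and terminal exhaustion genes, 4 were higher and 0 lower. Gzmb, the cytotoxic granzyme B, stood at 259 and 902 CPM, a ratio of 3.48 (3.38 to 3.58), and Cx3cr1 at 7.54 and 15.4 CPM, while Tbx21 and Eomes, the T-box factors of effector and memory cells, had ratios of 0.696 and 0.707.

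The same shares of all genes, 2.8% higher and 9.68% lower, stand beside the lists that follow. Of 9 genes compared from a list of partners of TCF1 and LEF1 and of E proteins, 0 were higher and 3 lower, with a median ratio of 0.736. The 3 were Tle3 at 0.639 and, with the lowest ratios at 0.509 and 0.609, Tcf12 and Tcf4, which in spite of their symbols are no relatives of Tcf7 but encode E proteins, the class that ID3 inhibits, and Tle5 and Tle4, relatives of Groucho corepressors, the highest at 1.10 and 0.874. Of 9 paralogs of the members, 0 passed 1.5-fold in either direction, between Cxcr4 at 0.802 and Klf4 at 0.887 below and Klf13 at 1.15 and Id2 at 1.24 above. Of 4 tissue residency genes 1 was higher, Rgs1 at 398 and 648 CPM, followed by Itga1 at 1.10, with Cd69 and Cxcr6 lowest at 0.897 and 0.928. Of 10 immediate early and stress genes 1 was higher, Jun at 250 and 415 CPM, then Fos at 1.39, with Hspa1b at 0.766 and Egr1 at 0.863 lowest. The 9 mitosis genes ran from 0.217 for Cenpf and 0.270 for Mki67 to 0.435 for Cdc20 and 0.443 for Cdk1. Without the cells that had UMIs of at least 2 mitosis genes, Satb1 stood at a ratio of 0.427, Tcf7 at 0.620 and Klf2 at 1.37 in CD8 T cells.

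The genes most like each member were sought over 20 profiles, 10 gates in each of 2 libraries, by Pearson correlation of log2(CPM + 1), and are given as a description with no test, since profiles of a library share its depth. Tcf7 was most like Gm2682 (r = 0.942), Sidt1 and Ehd3, and Lef1 most like Kbtbd11 (r = 0.955), Thada and Sidt1. Satb1 was nearest to Myb (r = 0.897), 4930523C07Rik and Arhgef18, and Bach2 to Foxp1 (r = 0.931), Aff3 and Zfp318. Ccr7 was nearest to Tmem108 (r = 0.866), Foxp1 and Pik3ip1, and S1pr1 to Arhgap15 (r = 0.929), Dtx1 and Ly6a. Id3 was nearest to Ms4a4c (r = 0.954), Poglut1 and P2ry10b, and Klf2 to Serpinb1a (r = 0.700) and Il12a. Among the members themselves Ccr7 and S1pr1 were most alike (r = 0.841), then Tcf7 and Lef1 (r = 0.814), and Klf2 and Id3 least (r = -0.20).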

How the data were processed

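Raw UMI count matrices of 2 droplet libraries were used. The authors deposited whole-number counts per gene and cell, with barcode and feature lists, made by Cell Ranger (version 5.0.1 per the study's methods, 6.0.1 per the file headers) on mm10. Cells passed the study's filter of at most 6000 genes and 25% mitochondrial UMIs. No doublet caller was run. The gates left out cells by the marker UMIs given above and, except for neutrophils, cells with S100a8 and S100a9 at 2% or more of UMIs. Counts were summed per gate and library and divided by the total (CPM). Genes were compared where the mean CPM of the groups was at least 10 and their counts summed to at least 20. A ratio has an exact conditional interval, a level an exact Poisson interval and a share a Clopper-Pearson interval, at 95% and for counting error only. UMIs count separate molecules, but those of a gene can gather in a few cells, as with 49 of 183 Id3 UMIs in 1 macrophage under combo. The intervals leave out this spread between cells and can be too narrow. Cells of a library are not replicates, so no test was run. Shares of cells with a UMI were read after thinning each cell to 2000 UMIs.

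The 8 genes and all lists were chosen with earlier results of these data known. All members are named, and from each list the 2 highest and 2 lowest ratios in CD8 T cells. Genes named for likeness are the 3 with the highest correlation among genes with at least 20 CPM in a profile. Values of macrophages, B cell precursors and Ighd, and the genes named in the split by Tcf7, were chosen after the data were seen. A pair of genes that these rules would name, one of them also left out of a plot, is not reported here. As a check of the code, Poisson counts were drawn from the summed lenvatinib counts with 200 genes altered 4-fold. Of these, 100% were called in CD8 T cells and in Foxp3 T cells, and the intervals held the true ratio for 95.5% and 98% of them. The draws follow the model of the intervals and hold no spread between cells or libraries, so they cannot show how well the intervals cover such spread. Changes near 1.5-fold were not drawn. Alternatives changed the cell filter, the gates, the CPM total, the averaging, the depth and the cells kept. Python 3.11.15, numpy 2.4.6, scipy 1.17.1, pandas 2.3.3 and matplotlib 3.10.9 were used. Promoter windows are from RefSeq (GRCm38.p6).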

Additional observations from a re-analysis of the deposited data

Results flagged for a closer look

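Lef1, Ccr7 and Id3 are given here because their intervals lay above 1 in some cell classes and below 1 in others. The ratio of combo to lenvatinib for Lef1 was 1.33 in CD4 T cells, 0.814 in CD8 T cells and 0.140 in B cells, the last with most of its UMIs under lenvatinib in 20 cells with a UMI of Igll1 or Vpreb1. For Ccr7 it was 2.00 in CD4 T cells and 0.832 in CD8 T cells. Weighted to the lenvatinib shares of 4 groups set by Pdcd1 and Gzmk, the ratio in CD8 T cells was 1.11 for Ccr7 and 1.004 for Lef1. Both genes were above 1 only in the Pdcd1- Gzmk- group, at 1.14 and 1.06, and below 1 in the other 3. The part of make-up in these ratios was not tested. For Id3 the ratio of combo to lenvatinib was 1.55 in NK cells, 1.28 in B cells and 0.782 in CD8 T cells. With 1 library in each arm the difference between the classes was not tested.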

How the results depend on the processing

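No paired analysis was possible because each arm was 1 library and no result comes from a test. Of 88 counts and shares recomputed under the alternatives, 80 stayed within 1.5 times or within their interval. The count of members past 1.5-fold in CD8 T cells was 4 with cells thinned to 2000 UMIs before gating, where S1pr1 at 0.626 and Id3 at 0.601 joined Tcf7 and Satb1, and 1 with mitochondrial, ribosomal and hemoglobin genes out of the total, where Tcf7 stood at a ratio of 0.670. In Foxp3 T cells it was 2 without the exclusion of other lineages and 2 with a T cell gate of 2 genes, and in NK cells 1 with the mean of single-cell CPM, where Id3 stood at 1.33. The share of Pdcd1+ CD8 T cells with a Tcf7 UMI under lenvatinib was 11.9% with cells thinned before gating. Thinned to 1000 UMIs it was 9.04% under lenvatinib and 5.29% under combo. Of 408 single-gene ratios under an alternative, 306 stayed within the interval of the reported value. Of those past 1.5-fold, Ccr7 in Foxp3 T cells turned to 1.43 without the exclusion of other lineages. The cause was not tested. The ratio of Satb1 in CD8 T cells ran from 0.384 to 0.542, that of Tcf7 from 0.541 to 0.777 and that of Klf2 from 1.36 to 1.57. Lef1 in B cells ran from 0.0822 to 0.447, and in Foxp3 T cells Tcf7 ran from 0 to 0.560, Bach2 from 0.581 to 2.66, Satb1 from 0.719 to 2.54 and S1pr1 from 0 to 1.56. The precision is set by 49 Foxp3 T cells under combo, and animal to animal spread was not measured.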

Other observations

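Myeloid cells carried some of the 8 genes. In 68 macrophages under lenvatinib and 64 under combo, set by UMIs of C1qa and Csf1r, Id3 stood at 37.4 CPM from 17 UMIs and at 319 CPM from 183 UMIs. An Id3 UMI was found in 7 of the 68 cells and in 28 of the 64, and the cell with the most held 5 and 49 of these UMIs. Id3 is known as a factor of Kupffer cells, the resident macrophages of the liver, but the Kupffer cell genes Clec4f, Timd4 and Vsig4 had 0 UMIs under lenvatinib and 1, 1 and 4 under combo, while Cd5l stood at 305 and 95.7 CPM. In 5 cells under lenvatinib with UMIs of Fscn1 and Ccl22, markers of mature dendritic cells, Ccr7 stood at 2376 CPM from 151 UMIs and was found in 5 of 5 cells, and 0 such cells were kept under combo. Satb1 stood at 67.5 and 31.5 CPM in neutrophils.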
